A study of Rattus norvegicus with 170 samples.

Results

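The matrix remodelling genes described here are the collagenase gene *Mmp13* and 9 genes of related proteases, inhibitors and matrix ligands: *Mmp2*, *Mmp3*, *Mmp9*, *Mmp10*, *Mmp14*, *Timp1*, *Timp2*, *Timp3* and *Spp1*. They are 10 of the 24113 genes in the table, each with 1 transcript (NM_133530.1 for *Mmp13*). *Mmp13* was chosen by its ratio of mean expression in insulin-rich cells of GNF4877-treated over DMSO-treated islets, so its difference between the treatments is a description and supports nothing. Islets were taken from wild type male Sprague Dawley rats aged 8 weeks, picked by hand, and exposed for 48 h, at 5.5 mM glucose, to 3 μM of the compound GNF4877 or to its vehicle, 0.1% DMSO. They were then dispersed with trypsin, captured as single cells on Fluidigm C1 chips and turned into cDNA with the SMARTer chemistry, which gave profiles of 86 cells from DMSO-treated and 84 cells from GNF4877-treated islets. The labels give no cell an animal or a culture of its own and name no further chip. Each treatment therefore counts as 1 sample whose cells are no replicates, and the treatment cannot be told apart from the chip and the lane.

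Expression is given in RPM, the reads of a transcript per 1000000 mapped reads of the cell. RPM is not divided by transcript length, so values are compared between cells and not between genes. Where a gene is named as leading a list, it is the one with the most RPM, with no regard to length. A cell is said to carry a gene at 10 RPM or more. Cells were sorted into classes by 1000 RPM or more of *Ins1*, an insulin gene of β-cells, and of *Gcg*, the glucagon gene of α-cells. In DMSO 56 cells held *Ins1* only, 22 held both hormones, 5 held *Gcg* only and 3 held neither. In GNF4877 the classes had 58, 1, 18 and 7 cells. Cells with *Ins1*, with or without *Gcg*, are called Ins1-high and numbered 78 and 59. Their median depth was 1235723 mapped reads in DMSO and 1424573 in GNF4877. Beside a share of cells stands its 95% interval (exact, by Clopper and Pearson), which covers counting error only. Where a share of 0 is given with the share it allows, that limit is the share that 3 cells would make. The chips had been inspected by microscope and profiles were deposited for ports in which 1 cell was seen, and no doublets were removed after that.

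Matrix metalloproteinases are zinc enzymes that are made as inactive precursors and, once activated, cut collagens and other proteins of the extracellular matrix. Tissue inhibitors of metalloproteinases bind the active enzymes and block them. Islet endocrine cells lie on a basement membrane made largely by neighbouring endothelial cells, and in most tissues fibroblast-like cells are a main source of the gelatinase *Mmp2* and the membrane protease *Mmp14*.

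*Mmp13*, a secreted collagenase, was carried by a minority of cells in both treatments. In Ins1-high GNF4877 cells it was carried by 16 of 59 (27.1%, 16.4% to 40.3%), all of them in the class with *Ins1* only. In Ins1-high DMSO cells it was carried by 9 of 78 (11.5%, 5.41% to 20.8%), 8 of 56 with *Ins1* only and 1 of 22 with both hormones. At 1 RPM or more the shares were 50.8% (37.5% to 64.1%) and 16.7% (9.18% to 26.8%). These shares come from the contrast by which the gene was chosen and are a description. *Mmp13* was also found outside the insulin cells. Among cells with *Gcg* only, it was carried by 3 of 18 in GNF4877 (16.7%, 3.58% to 41.4%) and by 2 of 5 in DMSO (40.0%, 5.27% to 85.3%). The 3 GNF4877 cells were cell 20 with 21.9 RPM of *Mmp13* beside 32.8 RPM of *Ins1*, cell 84 with 142 RPM beside 19.8 RPM, and cell 85 with 683 RPM beside 142 RPM. The 2 DMSO cells were cell 94 with 125 RPM beside 129 RPM of *Ins1*, and cell 67 with 172 RPM beside 450 RPM. Carriage of *Mmp13* was thus not limited to cells with 1000 RPM or more of *Ins1* in either treatment. Of the cells with neither hormone, 0 of 3 in DMSO and 1 of 7 in GNF4877 carried it, the latter being cell 5 with 10.0 RPM, or 3 reads.

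The levels of the carriers spread widely. The 16 Ins1-high GNF4877 carriers held 32.9 RPM of *Mmp13* at the lowest, 538 RPM at the median and 12580 RPM at the highest. The 9 Ins1-high DMSO carriers held 12.2, 147 and 421 RPM. Of the GNF4877 carriers, 8 of 16 lay above the highest DMSO carrier and the others within the range of the DMSO carriers. A single cell, GNF4877 cell 72, held 39.9% of all *Mmp13* RPM of the Ins1-high GNF4877 cells, and the next held 5513 RPM. In GNF4877 no Ins1-high cell lay close to the threshold of 10 RPM: the highest cell below it held 4.22 RPM and the lowest above it 32.9 RPM. In DMSO the cells just below held 9.43 and 8.92 RPM and the cell just above 12.2 RPM.

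Below the threshold the treatments differed in another way. A read of *Mmp13* was seen in 51.2% of the 43 Ins1-high GNF4877 cells that did not carry it, but in 13% of the 69 such DMSO cells. Such traces were also seen in 8 of the 15 GNF4877 cells with *Gcg* only that did not carry the gene. The median depth was 1424573 reads in all Ins1-high GNF4877 cells and 1388773 in all with *Gcg* only. The traces were small, with a mean of 0.848 RPM in the Ins1-high GNF4877 cells below 10 RPM. Whether traces came from the cells themselves or from other cells was not tested. After each cell was thinned to 100000 reads in the listed transcripts, so that 1 read stands for 10 in 1000000, *Mmp13* was left with a read in 20 of 58 Ins1-high cells of GNF4877 (34.5%, 22.5% to 48.1%), 4 of 18 with *Gcg* only (22.2%) and 12 of 76 Ins1-high cells of DMSO (15.8%, 8.43% to 26%).

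The value by which *Mmp13* was chosen was a mean of 535 RPM over the 59 Ins1-high GNF4877 cells and 22.9 RPM over the 78 Ins1-high DMSO cells, a 23.3-fold ratio. On the scale log2((mean RPM + 1)/(mean RPM + 1)), used below for lists of genes, it was 4.48, and 3.78 without cell 72. As a difference of mean log2(RPM + 1), which gives the few strong carriers less weight, it was 2.01.

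**Figure D1:**
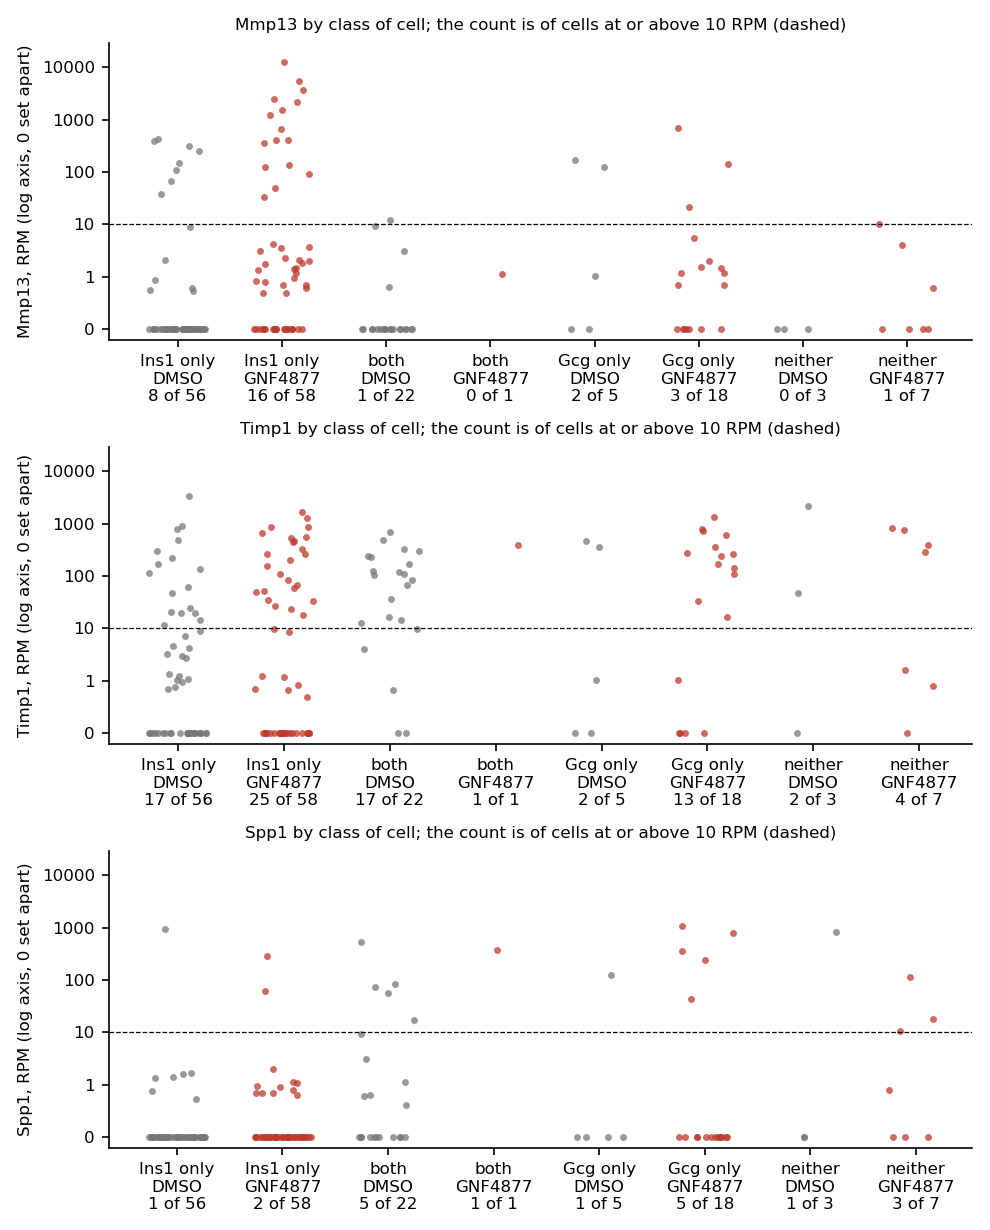
RPM of *Mmp13*, *Timp1* and *Spp1* (log axis, with 0 set apart) in each of the 170 cells, by class and treatment. Points are cells, grey for DMSO and red for GNF4877, the dashed line is 10 RPM, and the counts under each column are of cells at or above it. *Mmp13* reached 12580 RPM in GNF4877 cells with *Ins1* only, whereas *Timp1* was carried by 17 of 22 DMSO cells with both hormones and 13 of 18 GNF4877 cells with *Gcg* only.

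The gelatinase *Mmp2* and the membrane protease *Mmp14*, which activates the precursor of *Mmp2*, were carried by the same 5 cells of the 170. These were also the cells with 1000 RPM or more in sum over a list of 12 mesenchymal markers (*Col1a1*, *Col1a2*, *Col3a1*, *Dcn*, *Lum*, *Acta2*, *Pdgfra*, *Pdgfrb*, *Thy1*, *Postn*, *Rgs5* and *Tagln*). The sum was 29346 RPM in GNF4877 cell 15, 15693 RPM in DMSO cell 46, 8920 RPM in DMSO cell 24, 7496 RPM in DMSO cell 29 and 2310 RPM in GNF4877 cell 42. In the remaining 165 cells it had a median of 1.6 RPM and reached 113 RPM. *Mmp2* was at 1691, 345, 509, 756 and 79.9 RPM in the 5 cells, in the same order, and *Mmp14* at 208, 344, 227, 375 and 273 RPM. *Mmp13* had no read in any of them. Over all cells *Mmp13* was carried by 11 of 86 in DMSO and 20 of 84 in GNF4877, so few of 5 cells would carry it at these shares, and nothing is read from its absence.

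The 5 cells were spread over the hormone classes. DMSO cells 46 and 24 were Ins1-high, with 11547 and 49075 RPM of *Ins1*. They held 11 and 10 of the 12 mesenchymal markers at 10 RPM or more, led by *Col1a1* (3470 and 3056 RPM), with *Rgs5* at 0. DMSO cell 29 held neither *Ins1* nor *Gcg* at 1000 RPM but had 45020.5 RPM of *Ppy*, the hormone of PP cells, and 8 of the 12 markers, led by *Col3a1* at 2734 RPM, with *Thy1*, *Rgs5* and *Tagln* at 0. GNF4877 cell 15 held neither hormone and 7 markers, led by *Postn* at 15951 RPM, with *Pdgfra*, *Rgs5* and *Tagln* at 0. GNF4877 cell 42 had 43763 RPM of *Gcg* and 4 markers, led by *Col3a1* at 1382 RPM, with *Lum*, *Thy1*, *Postn*, *Rgs5* and *Tagln* at 0. Each port had been inspected for a lone cell, and whether any of the 5 held a pair all the same was not tested.

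Both differences between the treatments rested on DMSO cells 24 and 46. *Mmp2* was carried by 2 of 78 Ins1-high DMSO cells (2.56%, 0.312% to 8.96%) and by 0 of 59 in GNF4877, which allows a share of up to 5.08%. It had a mean of 11 RPM in DMSO and 2 reads in all in GNF4877, a log2 ratio of reads over summed depth of -8.37 (95% counting interval -11.42 to -6.51). *Mmp14* was carried by the same 2 of 78 and 0 of 59 cells. With 7.34 RPM in DMSO and no read in GNF4877 it was at least 199-fold lower, set against 3 reads over the 59 cells (0.0369 RPM). Without the 2 DMSO cells *Mmp2* had 2 reads in each treatment and *Mmp14* had 2 reads in DMSO and 0 in GNF4877, so no fold could be given. The other gelatinase, *Mmp9*, had no read in any of the 170 cells, which allows a share of carriers of up to 3.49% in the 86 DMSO cells and 3.57% in the 84 GNF4877 cells.

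**Figure D2:**
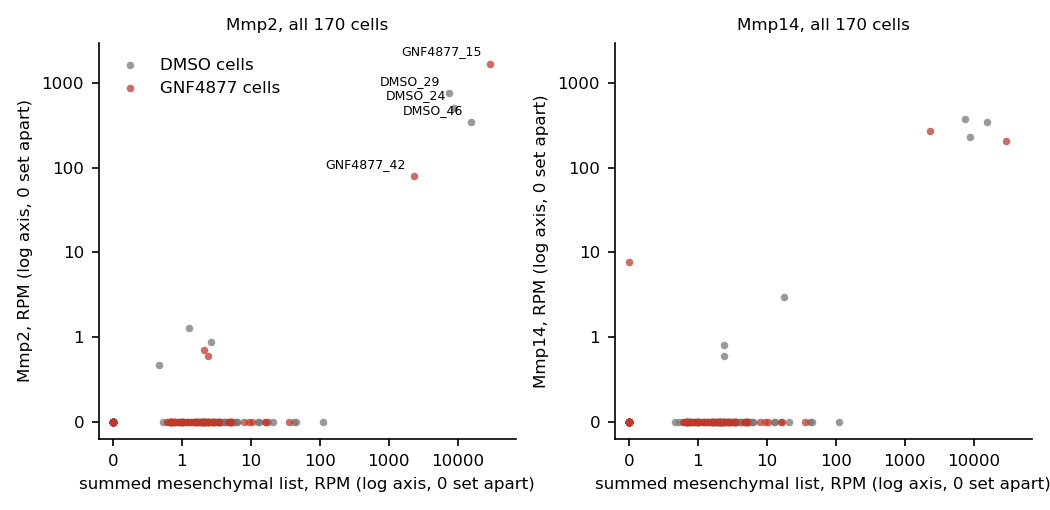
RPM of *Mmp2* (left) and *Mmp14* (right) against the summed RPM of 12 mesenchymal markers in all 170 cells, both axes on a log scale with 0 set apart. Each point is a cell, grey for DMSO and red for GNF4877. The 5 cells with a sum of 2310 RPM or more, named in the left panel, are those with 10 RPM or more of *Mmp2*, and the remaining cells lie at a sum of 113 RPM or less.

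The stromelysins *Mmp3* and *Mmp10*, which cut many matrix proteins and can activate other metalloproteinase precursors, were all but unread. *Mmp3* was found in 1 cell, the Ins1-high GNF4877 cell 30, with 26 reads or 21.2 RPM. This is 1 of 59 cells (1.69%, 0.0429% to 9.09%), against 0 of 78 in DMSO, which allows up to 3.85%. Set against 3 reads over the DMSO cells its mean was at least 11.4-fold higher in GNF4877, on the reads of that cell. *Mmp10* had no read in any cell, with the same limits as *Mmp9*.

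*Mmp13* lies at the end of a cluster of metalloproteinase genes on chromosome 8 of the rat, and the metalloproteinase genes beside it were at or near 0. In the gene table of the assembly GRCr8, the protein-coding gene next to *Mmp13* on the outer side is *Dcun1d5*, carried by 29 of 78 Ins1-high DMSO cells and 11 of 59 Ins1-high GNF4877 cells. On the inner side *Mmp12*, *Mmp1b*, *Mmp3*, *Mmp1*, *Mmp10*, *Mmp8*, *Mmp27*, *Mmp20* and *Mmp7* follow in this order. Of these 9 genes, 6 had no read in any cell. *Mmp12* had 17 reads in all DMSO cells and 6 in all GNF4877 cells, up to 2.22 RPM in a cell, *Mmp20* had 4 reads in DMSO and 0 in GNF4877, and *Mmp3* had the 26 reads of cell 30. Of *Mmp13* and these 9 genes, *Mmp13* was thus the one carried by more than 1 cell.

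The sequences before the start of *Mmp13*, *Mmp3* and *Mmp10* share letters although their reads did not go together, and are shown for that reason. RefSeq promoters of GRCr8, from 250 bases before to 50 after the start of a gene, were found for 7 of the 10 members (*Mmp13*, *Mmp3*, *Mmp10*, *Timp1*, *Timp2*, *Timp3* and *Spp1*, not *Mmp2*, *Mmp9* and *Mmp14*). They were searched on both strands for TGAGTCA, the letters bound by AP-1 factors, and AACCACA, letters bound by Runx factors, which do not overlap each other. TGAGTCA or its complement TGACTCA begins 66 bases before the start of *Mmp13*, 71 before that of *Mmp3* and 61 before that of *Mmp10*, and was found in 4.63% of the 33469 promoters of the table. AACCACA begins 150 bases before the start of *Mmp13*, was found in 5.57% of all promoters and was not in the windows of *Mmp3* and *Mmp10*. The windows of *Timp1*, *Timp2*, *Timp3* and *Spp1* held neither. The last 160 bases before each start follow, on the strand of the gene (+) and with the motif letters in capitals, for *Mmp13* at chr8:12782669-12782828, *Mmp3* at chr8:12925121-12925280 and *Mmp10* at chr8:12974547-12974706. A match is a description of letters and shows no binding.
Mmp13: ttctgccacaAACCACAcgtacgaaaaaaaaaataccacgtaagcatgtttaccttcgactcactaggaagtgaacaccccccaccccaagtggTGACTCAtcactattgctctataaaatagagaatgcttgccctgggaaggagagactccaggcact
Mmp3: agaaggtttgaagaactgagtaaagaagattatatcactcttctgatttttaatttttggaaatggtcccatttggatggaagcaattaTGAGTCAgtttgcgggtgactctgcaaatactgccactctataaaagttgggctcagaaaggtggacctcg
Mmp10: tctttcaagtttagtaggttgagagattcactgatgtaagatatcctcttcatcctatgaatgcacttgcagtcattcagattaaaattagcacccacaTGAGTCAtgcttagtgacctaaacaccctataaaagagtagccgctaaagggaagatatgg

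*Timp1*, a secreted inhibitor of most metalloproteinases, was the member carried by the most cells, and its share differed more between cells with and without *Gcg* than between the treatments. Of Ins1-high cells, 34 of 78 in DMSO (43.6%, 32.4% to 55.3%) and 26 of 59 in GNF4877 (44.1%, 31.2% to 57.6%) carried it. In DMSO it was carried by 17 of 22 cells with both hormones (77.3%, 54.6% to 92.2%) and 17 of 56 cells with *Ins1* only (30.4%, 18.8% to 44.1%), and these intervals do not overlap. In GNF4877 it was carried by 13 of 18 cells with *Gcg* only (72.2%, 46.5% to 90.3%) and 25 of 58 cells with *Ins1* only (43.1%, 30.2% to 56.8%), with intervals that overlap. With cells left out that had a second hormone (*Gcg*, *Sst* or *Ppy* at 1000 RPM or more), the share was 30.2% in Ins1-high DMSO cells (16 of 53, 18.3% to 44.3%) and 40% in Ins1-high GNF4877 cells (22 of 55, 27% to 54.1%), so the near-equal shares above hold for pools with 22 and 1 cells of both hormones. The 5 DMSO cells with *Gcg* only were an exception, of which 2 carried *Timp1*, and of the cells with neither hormone 2 of 3 in DMSO and 4 of 7 in GNF4877 did.

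Within each treatment, the median of *Timp1* was higher in the class with *Gcg* given here than in cells with *Ins1* only. In DMSO cells with *Ins1* only it ranged from 0 to 3387 RPM with a median of 0.976 RPM, and in DMSO cells with both hormones from 0 to 689 RPM with a median of 92.6 RPM. In GNF4877 cells with *Ins1* only it ranged from 0 to 1667 RPM with a median of 0.999 RPM, and in those with *Gcg* only from 0 to 1366 RPM with a median of 157 RPM. All 4 ranges overlap, and each starts at 0. The median depth was 1182925 reads for *Ins1* only and 1355291 for both hormones in DMSO, and 1420597 for *Ins1* only and 1388773 for *Gcg* only in GNF4877. With every cell thinned to 100000 reads, the shares were 35.2% (22.7% to 49.4%) and 72.7% (49.8% to 89.3%) in DMSO, and 40.4% and 72.2% in GNF4877. The mean over Ins1-high cells was 162 RPM in GNF4877 and 127 RPM in DMSO, a log2 ratio of 0.34. It was 0.92 without DMSO cell 51, which held 49.8% of the DMSO sum of cells with *Ins1* only, and 0.09 without GNF4877 cell 72, the highest of its treatment.

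*Timp2*, which also takes part in the activation of the *Mmp2* precursor by *Mmp14*, was carried by 3 of 78 Ins1-high DMSO cells (3.85%, 0.8% to 10.8%), at 14.8 to 26.4 RPM. It had no read in the 59 Ins1-high GNF4877 cells. Its other carriers were GNF4877 cells 15 and 42, with 117 and 15.4 RPM, which also carried *Mmp2* and *Mmp14*. Of the DMSO cells that carried *Mmp2*, cell 46 held the most *Timp2* of all DMSO cells, 26.4 RPM. *Timp3*, an inhibitor bound to the matrix, was carried by 2 of 78 Ins1-high DMSO cells (2.56%, 0.312% to 8.96%), at 53.7 and 62.3 RPM, by 1 of 5 DMSO cells with *Gcg* only, at 197 RPM, and by 1 of 3 with neither hormone, at 74.8 RPM. In GNF4877 it had no read in any of the 84 cells. Against 3 reads over the 59 Ins1-high GNF4877 cells, *Timp2* was at least 29.5-fold and *Timp3* at least 43.9-fold lower there than in DMSO, from means of 1.09 and 1.62 RPM. Without DMSO cells 24 and 46 the bounds were 18-fold and 42.5-fold. That of *Timp3* rests on DMSO cells 11 and 62: with 1 RPM added to both means its log2 ratio was -1.39, and -0.87, under 2-fold, without cell 62.

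*Spp1*, which encodes osteopontin, a secreted phosphoprotein that binds integrins and CD44, was carried by few cells, most of them outside the class with *Ins1* only. It was carried by 1 of 56 DMSO cells with *Ins1* only (1.79%, 0.0452% to 9.55%), which was cell 24 with 933 RPM, and by 5 of 22 with both hormones (22.7%, 7.82% to 45.4%). In GNF4877 it was carried by 2 of 58 cells with *Ins1* only (3.45%, 0.420% to 11.9%), by the 1 cell with both hormones, and by 5 of 18 with *Gcg* only (27.8%, 9.69% to 53.5%), where it reached 1072 RPM in cell 85. The intervals of the classes overlap in both treatments. In thinned cells the shares were 1.85% and 27.3% in DMSO, and these intervals (0.0469% to 9.89% and 10.7% to 50.2%) do not overlap. In GNF4877 they were 7.02% for *Ins1* only and 27.8% for *Gcg* only. Its other carriers in DMSO were cell 67 with *Gcg* only (127 RPM) and cell 29 with neither hormone (842 RPM), and 3 of 7 GNF4877 cells with neither hormone carried it. The mean over Ins1-high cells was 12.4 RPM in GNF4877 and 22 RPM in DMSO, a log2 ratio of -0.78 with 1 RPM added to both means. Its sign rested on single cells: it was 0.24 without DMSO cells 24 and 46, 0.26 without cell 24 alone and -1.68 without the GNF4877 cell with the most *Spp1*.

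Counted over Ins1-high cells, 8 of the 10 members had a read in either treatment. By mean RPM, with 1 RPM added to both means, *Mmp13* was 2-fold or more higher in GNF4877, which the choice of the gene fixed, and 4 members (*Mmp2*, *Mmp14*, *Timp2* and *Timp3*) were 2-fold or more lower. The added 1 RPM keeps *Mmp3*, with its lower bound of 11.4-fold on 1 cell, out of this count. Over all 17855 genes with a read, 8.00% were higher and 14.5% lower by this measure. Without DMSO cells 24 and 46, an alternative chosen after seeing the data, 1 member was higher and 1 (*Timp3*) lower on the same scale, against 8.56% and 13.5% of 17630 genes, while *Timp2*, at 0.664 RPM in DMSO and 0 in GNF4877, fell short of 2-fold with 1 RPM added. The count for *Timp3* rests on DMSO cell 62, as given above.

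Whether the other proteases and inhibitors followed *Mmp13* was asked within each treatment, over Ins1-high cells. In GNF4877, *Timp1* was carried by 11 of the 16 *Mmp13* carriers (68.8%, 41.3% to 89%) and by 15 of the other 43 cells (34.9%, 21% to 50.9%), with intervals that overlap. Its RPM in the carriers ranged from 0 to 1667 with a median of 110, and in the other cells from 0 to 858 with a median of 0.669. The means were 369 and 84.5 RPM, a 4.36-fold ratio, which on the log2 scale used for lists was 2.11, and 1.73 without cell 72. Across the 59 cells, which share a chip and differ in depth, Spearman's rho between *Mmp13* and *Timp1* was 0.27, and 5 of the 16 carriers had no read of *Timp1*. In DMSO the gene was carried by 4 of 9 *Mmp13* carriers (44.4%, 13.7% to 78.8%) and 30 of the other 69 cells (43.5%, 31.6% to 56%), and rho was 0.06. In GNF4877 cells thinned before both genes were read, the shares were 11 of 20 and 13 of 38, and with any read of *Mmp13* in place of 10 RPM they were 19 of 38 and 7 of 21, which are nearer each other. The difference between the treatments was not tested.

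In Ins1-high GNF4877 cells the other members were read too rarely to follow *Mmp13* or were not carried with it. *Mmp14*, *Timp2*, *Timp3*, *Mmp9* and *Mmp10* had no read in either the carriers or the other Ins1-high cells, for which 0 of 16 allows a share of up to 18.8%. *Mmp2* had 1 read in each group. *Mmp3* was in a cell without *Mmp13* at 10 RPM. *Spp1* was carried by 0 of 16 carriers and 3 of the other 43 cells (6.98%, 1.46% to 19.1%), with rho of -0.17 over the 59 cells and 0.14 over the 78 of DMSO. Among GNF4877 cells with *Gcg* only, 2 of the 3 *Mmp13* carriers also carried *Spp1*, cell 20 with 237 RPM and cell 85 with 1072 RPM. Cells 27, 59 and 71 of that class carried *Spp1* (43.9, 804 and 352 RPM) without *Mmp13* at 10 RPM. All 3 *Mmp13* carriers, cells 20, 84 and 85, also carried *Timp1* (723, 796 and 1366 RPM), as did most other cells of the class. In DMSO, *Timp3* was carried by 1 of 9 carriers, cell 62, and 1 of the other 69 cells, *Timp2* by 0 and 3, *Spp1* by 0 and 6, and *Mmp2* and *Mmp14* by 0 and 2. By mean RPM, again with 1 RPM added, 2 of the 5 members with a read in GNF4877 were 2-fold or more higher in the carriers (*Mmp13* by construction, and *Timp1*) and 1 was lower (*Spp1*), where 12.5% of 15922 genes were higher and 16.5% lower. *Mmp3*, at 0 in the carriers and 0.493 RPM in the others, was at least 3.94-fold lower without the added 1 RPM, on 1 cell. In DMSO 2 of 7 were higher (*Mmp13* by construction, and *Timp3*) and 3 lower (*Mmp2*, *Mmp14* and *Spp1*), where 6.34% of 17295 genes were higher and 19.6% lower. The log2 ratio of *Timp3* rests on a single cell, at 2.09 and at -0.65 without cell 62. *Mmp2* and *Mmp14* were carried among the other cells by cells 24 and 46. For *Spp1* the log2 ratio was -4.12, and -3.07 without the cell with the most of it among the others.

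**Figure D3:**
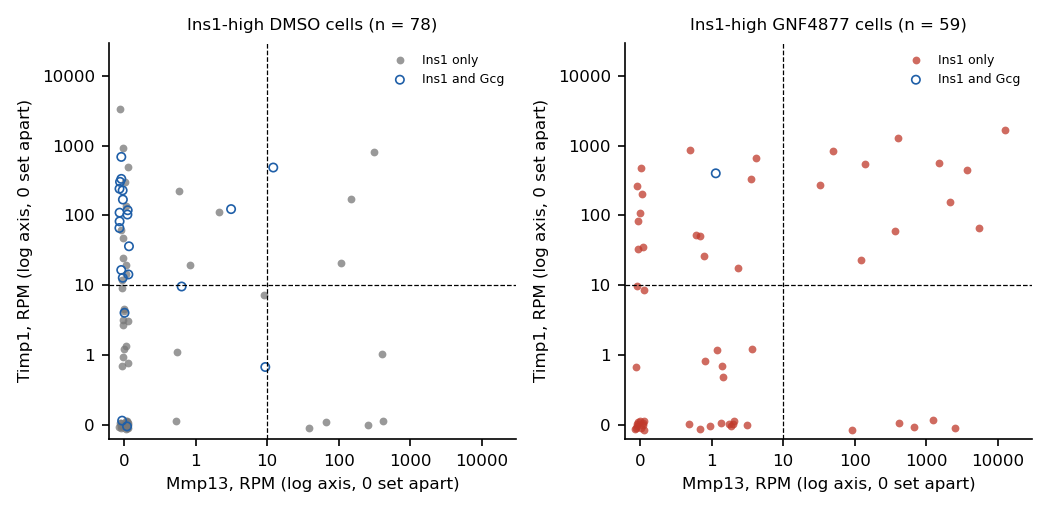
RPM of *Timp1* against *Mmp13* in Ins1-high cells of DMSO-treated (left, 78 cells) and GNF4877-treated islets (right, 59 cells), both axes on a log scale with 0 set apart and points at 0 spread slightly for sight. Filled points held *Ins1* only, open blue circles held *Ins1* and *Gcg*, and dashed lines mark 10 RPM. In GNF4877 11 of the 16 cells to the right of the line lie above 10 RPM of *Timp1*, in DMSO 4 of 9.

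Hormones, markers of other cells and depth in the carriers are given here because their part in these results was not tested. In GNF4877 the 16 carriers had a median of 28393 RPM of *Ins1* (2435 to 61209) and the other 43 cells 18580 RPM (1248 to 184281), with median depths of 1580524 and 1315177 reads and medians of 7195 and 6878 genes read. In DMSO the 9 carriers had a median of 80408 RPM of *Ins1* (38201 to 129813) and the others 31567 RPM (1784 to 147087), at 902540 and 1303481 reads and 8787 and 8956 genes. Carriers of *Mmp13* in DMSO thus had more *Ins1* at the median and were sequenced less deeply. The 7 measured β-cell markers, led by *Ins2*, summed to a median of 17891 RPM in the GNF4877 carriers and 12446 RPM in the other cells, and to 39340 and 12496 RPM in DMSO. The 12 mesenchymal markers summed to 36.1 RPM or less in every GNF4877 carrier and to 6.31 RPM or less in every DMSO carrier, and 1 and 0 of the 12 were carried by any of these cells. Endothelial markers summed to 23.5 RPM or less in the GNF4877 carriers, with 1 of 9 carried (*Esam*), and to 1.70 RPM or less in the DMSO carriers. Immune markers, led by *Cd74*, had medians of 6.53 RPM in the GNF4877 carriers and 8.98 RPM in the other cells, with 617 and 988 RPM at the highest. The duct list, led by *Krt7*, had medians of 335 and 342 RPM in these groups. In DMSO, where *Epcam* led it, it had medians of 145 RPM in the carriers and 316 RPM in the others. Delta and PP lists reached 43.2 and 2293 RPM in the GNF4877 carriers and 15791 and 41535 RPM in the other GNF4877 cells, and *Ppy* reached 50139 RPM in DMSO carrier 22, a cell of the class with *Ins1* only. Of the β-cell markers, *Mafa* was at 0 in both GNF4877 groups, while each of them had a read in both DMSO groups. Other lists too held markers at 0 in both GNF4877 groups, such as *Muc1* of the duct list and *Ghsr* of the delta list. A reason for this was not tested.

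*Mmp13* carriers overlapped in part with cells that carried *Ccnb1*, the mitotic cyclin gene, or *Akr1b8*, an aldo-keto reductase gene. In Ins1-high GNF4877 cells, *Ccnb1* was carried by 5 of 16 *Mmp13* carriers (31.2%, 11% to 58.7%) and 6 of the other 43 cells (14%, 5.30% to 27.9%), and *Akr1b8* by 7 of 16 (43.8%, 19.8% to 70.1%) and 8 of 43 (18.6%, 8.39% to 33.4%), with intervals that overlap for both. The mean of *Akr1b8* was 450 RPM in these carriers and 512 RPM in the others. With 1 RPM added to both means, its log2 ratio was -0.18, and the sign rested on a single cell. It was 1.53 without GNF4877 cell 18, which held 15479 RPM, and -0.95 without the carrier with the most of it. By rank, Spearman's rho between *Akr1b8* and *Mmp13* was 0.46 across the Ins1-high GNF4877 cells, 0.21 in thinned cells and 0.05 across the Ins1-high DMSO cells. In DMSO 0 of 9 carriers held either gene at 10 RPM. Of the other 69 DMSO cells, 1 carried *Ccnb1* and 8 carried *Akr1b8*. The *Ccnb1* carrier was cell 46, with 49.4 RPM. Cells 24 and 46, both high in the mesenchymal list, were among the *Akr1b8* carriers, with 338 and 51.1 RPM.

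The genes most like *Mmp13* across the 59 Ins1-high GNF4877 cells were sought among 7632 genes carried by at least 10 of these cells, for which rho had a median of 0.04 and lay between -0.19 and 0.27 for 90% of genes. *Ppap2a*, a lipid phosphatase gene, had the highest rho, 0.52, and 0.49 across the 78 Ins1-high DMSO cells. It was carried by 14 of 16 *Mmp13* carriers and 19 of the other 43 cells, with medians of 120 and 5.42 RPM. *Tmem189* had rho of 0.51 and *Sh3gl1* of 0.50, but 0.06 and -0.06 in DMSO. *Tmem189* was carried by 3 of 16 *Mmp13* carriers and 8 of the other 43 cells, with medians of 1.06 and 0 RPM. *Sh3gl1* was carried by 12 and 12, with medians of 56.7 and 0 RPM. In thinned cells rho was 0.51 for *Ppap2a*, 0.25 for *Tmem189* and 0.40 for *Sh3gl1*. The next 7 were *LOC100912969*, *RGD1565368*, *LOC685186*, *LOC307738*, *Gapdh-ps1*, *LOC500269* and *LOC685248*, with rho of 0.47 to 0.48 in GNF4877 and 0.20 to 0.44 in DMSO. In thinned cells rho lay between 0.03 (*LOC100912969*) and 0.48 (*LOC685186*) for these 7, and was 0.22 for *LOC685248*. These 7 had rho of 0.882 to 0.997 with *Gapdh*, the glycolytic enzyme gene, across the same GNF4877 cells. *Gapdh* itself had rho of 0.47 with *Mmp13* in GNF4877 and 0.43 in DMSO, and is named after its values were seen. Near-identical copies can share reads, so the 7 are uncertain as separate genes. *Timp1* ranked 421 of the 7632, and *Akr1b8*, with the values of rho given above, ranked 19. Depth had rho of 0.28 with *Mmp13* in GNF4877 and -0.13 in DMSO.

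Lists of other genes of the pathway were compared between Ins1-high GNF4877 and DMSO cells, and are described by counts past 2-fold and medians of log2((mean RPM + 1)/(mean RPM + 1)), beside 8.00% of genes higher, 14.5% lower and a median of -0.08 over all genes. A second median sets a mean below 3 reads over the group to that level and adds no pseudocount. Of the further metalloproteinases, 9 of 17 in the table had a read, 0 were higher and 3 lower, with medians of -0.44 and -1.22. *Mmp24*, a membrane metalloproteinase gene, was carried by 13 of 59 GNF4877 and 47 of 78 DMSO cells (12 and 27.9 RPM on average, log2 ratio -1.15). Of 5 further inhibitors 0 were higher and 2 lower (medians -0.94 and -2.44), and *Pcolce*, a collagen processing gene of that list, averaged 16.6 and 20.4 RPM (log2 ratio -0.28, and 0.89 without DMSO cells 24 and 46). Of 13 genes of metalloproteinase activation and the plasminogen system, 4 were higher and 3 lower (medians 0.19 and 0.53). *Cd44*, among those higher, had a log2 ratio of 2.83, and 0.43 without the GNF4877 cell with the most of it. *Lcn2*, a lipocalin that binds MMP9, averaged 839 RPM in GNF4877 and 148 RPM in DMSO, in 27 of 59 and 19 of 78 cells, and *Bsg*, known as an inducer of metalloproteinases, 460 and 319 RPM. *Serpini1*, a serine protease inhibitor, averaged 46.1 and 96.8 RPM and *Furin*, a convertase that activates *Mmp14*, 10.8 and 22.4 RPM.

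Of 15 ADAM and ADAMTS genes 1 was higher and 5 were lower (medians -0.58 and -1.55). *Adam9* averaged 54.2 RPM in GNF4877 and 20.7 RPM in DMSO (log2 ratio 1.34), and *Adam15* 1.26 and 7.57 RPM (-1.92). Of 12 cathepsins and cystatins 0 were higher and 3 lower (medians -0.15 and -0.17). *Ctsb*, a lysosomal cysteine protease gene carried by 59 of 59 GNF4877 and 76 of 78 DMSO cells, averaged 3874 and 2060 RPM (0.91), *Ctsl1* 953 and 650 RPM, and *Ctsh* 7.85 and 33.7 RPM (-1.97). Of 20 osteopontin and matrix receptors 2 were higher and 6 lower (medians -0.44 and -0.82). *Cd44*, among those higher here too, fell under 2-fold without a single GNF4877 cell, as given above. *Dag1*, which encodes dystroglycan, averaged 17.5 and 51.5 RPM (-1.50), *Ddr1*, a collagen receptor, 4.52 and 10.5 RPM (-1.06), and *Sdc4*, a syndecan, 959 and 771 RPM (0.31). Of 15 transcription factors known at the *Mmp13* promoter 0 were higher and 7 lower (medians -0.86 and -1.13). *Jun* averaged 16.7 and 43.1 RPM (-1.32), *Jund* 12.3 and 33 RPM (-1.35) and *Cebpb* 1.6 and 6.43 RPM (-1.51), while *Tcf7* averaged 6.14 and 4.70 RPM (0.33).

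The list of collagens and matrix proteins stood out by its counts, with 26 of 33 genes lower and 1 higher (medians -2.41 and -6.16), but it did so through DMSO cells 24 and 46. Without them 5 of 30 were lower and 1 higher, with medians of -0.19 and -0.50, beside 8.56% of all genes higher, 13.5% lower and a median of -0.06. *Bgn*, the biglycan gene, went from a log2 ratio of -2.11 to -0.52 when they were left out, and *Fn1*, which encodes fibronectin, from -2.28 to -1.50. *P4ha1*, an enzyme of collagen hydroxylation carried by 51 of 59 GNF4877 and 72 of 78 DMSO cells, averaged 292 and 263 RPM. Counts of the plasminogen list moved to 6 higher and 1 lower, those of the receptors to 2 and 2 of 18, of the ADAM genes to 1 and 3 of 13, of the cathepsins to 0 and 2, and of the transcription factors to 0 and 5 of 14. The further metalloproteinases (0 and 3) and inhibitors (0 and 2) had the same counts, but their medians went from -0.44 to -0.11 and from -0.94 to -0.03. The median of the cathepsins went from -0.15 to 0.14.

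The same lists were compared between the 16 *Mmp13* carriers and the other Ins1-high GNF4877 cells, beside 12.5% of all genes higher and 16.5% lower in the carriers. Among the further metalloproteinases 1 of 5 with a read was higher and 0 lower: *Mmp24* averaged 24.8 RPM in the carriers and 7.24 RPM in the others, carried by 5 of 16 and 8 of 43 cells. Of the inhibitors 1 of 3 was higher and 1 lower, of the plasminogen list 4 and 3 of 13, of the ADAM genes 1 and 3 of 10, and of the cathepsins 0 and 3 of 11. *Ctsz*, a cathepsin gene, was carried by 0 of 16 carriers and 8 of 43 others, and *Cst6*, a cystatin gene, by 10 and 32. *Adam17* averaged 34.6 and 12.4 RPM and *Adam10* 4.06 and 29.5 RPM, in 3 and 2, and 2 and 8 cells. Of the collagens and matrix proteins 2 of 25 were higher and 1 lower. *Fn1* averaged 38.9 and 8.48 RPM on 2 carrying cells in each group, and *P4ha1* 406 and 249 RPM in 16 of 16 and 35 of 43 cells. Of the receptors 1 of 15 was higher (*Cd44*, described below) and 1 lower. *Sdc4*, at 1402 and 794 RPM, was under 2-fold and in neither count. Of the transcription factors 1 of 13 was higher and 1 lower. *Ets2*, at 92.8 and 46.4 RPM, and *Jun*, at 21.4 and 14.9 RPM, fell short of 2-fold with 1 RPM added and are in neither count. The list medians lay between -0.30 and 0.05, beside -0.08 over all genes. The second medians, with no pseudocount, lay between -0.43 (ADAM genes) and 1.22 (inhibitors), with 0.65 for the plasminogen list. In DMSO, where 9 carriers were set beside 69 other cells that include cells 24 and 46, 24 of 33 collagens and matrix proteins were lower and 2 higher, and the medians of the lists lay between -2.55 and -0.01, beside 6.34% of genes higher, 19.6% lower and a median of -0.19 over all genes. *Cd44*, a receptor for osteopontin and a docking protein of MMP9, was higher by a single cell: it averaged 247 RPM in the carriers, of which GNF4877 cell 72 made up 94.5%, and was carried by 3 of 16 and 3 of 43 cells. It falls outside the rule for named genes and was chosen after its values were seen.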

How the data were processed

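The values deposited by the authors are RPM, which count the reads of a transcript per 1000000 mapped reads of its cell, with no division by length. The submitters' processing notes name CASAVA 1.8.2, BWA 0.5.9 and SAMtools 0.1.19. A mouse transcriptome is named in the methods although the transcripts listed are of rat RefSeq; 17365 of 27586 matched the gene table of GRCr8, used for names and neighbours. All 170 columns were used and 0 had no sample.

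The floor value of 0.01 was set to 0 and the transcripts of a symbol were summed, where each member had 1. Of all values, 69.7% were at this floor. Reads came from the step between low values: of those up to 20 reads, 100% were less than 0.1 from a whole number. Cells gave 241604 to 2499138 mapped reads. Thinning drew 100000 of a cell's reads in the listed transcripts, so 3 cells in DMSO (2 Ins1-high) and 3 in GNF4877 (1 Ins1-high), which had fewer, are missing from the thinned shares. With 1 sample a treatment no test was run. Bounds used 3 reads over a group, and a ratio with 1 to 3 reads in a group is of reads over summed depth, with a binomial interval.

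The members and lists were chosen with earlier results of these data known. Named were the members, up to 3 genes from each end of a list among those carried by at least 10 Ins1-high cells of a treatment, the 10 genes with the highest rho with *Mmp13*, and its neighbours. From each list only some of these are printed. *Mmp1a*, *Ctsl*, *Col15a1* and *Hspg2* of the lists were not in the table. Thresholds, pseudocounts, depth, scale and cells were varied. Leaving out Ins1-high cells with 1000 RPM or more over the mesenchymal list was added after seeing the data. The ratio, rank and thinning steps were tested on simulated data. They ran on Python 3.11.15 with the packages matplotlib 3.10.9, scipy 1.17.1, pandas 2.3.3 and numpy 2.4.6.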

Additional observations from a re-analysis of the deposited data

How the results depend on the processing

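No paired analysis was possible because the 75 cell numbers found in both treatments name only a chip port, and a treatment has 1 sample. Of 220 shares recomputed, 20 left the interval of the value reported. Others could not move, such as those of genes with no read. Of 88 ratios, 26 moved by over 1.5-fold and 2 that were past 2-fold changed sign. Of 16 counts of list genes, 4 moved by over 1.5-fold. With any read in place of 10 RPM, *Mmp13* was seen in 23.1% of Ins1-high DMSO and 64.4% of Ins1-high GNF4877 cells, and *Timp1* in 65.4% and 57.6%. At 1 RPM or more, *Mmp13* was in 50.8% of GNF4877 and 16.7% of DMSO cells, and *Timp1* in 50.8% and 60.3%. At 100 RPM or more, *Timp1* was in 25.6% of DMSO and 27.1% of GNF4877 cells. Without cells with a second hormone, *Timp1* was carried by 30.2% of Ins1-high DMSO and 40% of Ins1-high GNF4877 cells, and by 30.4% of the DMSO cells without *Mmp13*. The log2 ratio of *Mmp13* was 2.01 as a difference of mean log2(RPM + 1) and 3.78 without the GNF4877 cell with the most of it. Any *Ins1* above 0 in place of 1000 RPM takes in all 86 DMSO and 84 GNF4877 cells, GNF4877 cell 15 among them. The log2 ratio of *Mmp2* was then 0.16 and that of *Timp2* 0.38, against negative values as reported. The log2 ratio of *Spp1*, -0.78 and under 2-fold, also changed sign, to 0.36 with any *Ins1* above 0, 0.26 without the DMSO cell with the most of it and 0.24 without DMSO cells 24 and 46. Without DMSO cells 24 and 46, chosen after seeing the data, 5 collagens and matrix proteins were 2-fold or more lower. Other causes were not tested. Depth limits what a count of 0 shows, since the cells gave 241604 to 2499138 mapped reads.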
